A study of Mus musculus with 8 samples.

Results

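The 9 genes described here encode receptors and ligands of the GDNF family and of the neurotrophins. They were taken by symbol from the deposited count table of 56691 gene IDs, and all 9 were found and passed the filter on low counts that left 19912 genes for testing. The 6 receptor genes are Ret, Gfra1, Gfra2, Ntrk2, Ntrk3 and Ngfr, and the 3 ligand genes are Gdnf, Bdnf and Ntf3. The libraries hold mRNA bound to ribosomes from the ventral tegmental area (VTA) of the mouse, the midbrain region whose dopamine neurons serve reward and motivation. Animals of both genotypes, Ogt flox+/Y (here Ogt knockdown) and Ogt flox-/Y (control), were given the same pair of viruses in the VTA. AAV-TH-Cre expresses Cre recombinase from the tyrosine hydroxylase promoter. AAV-Flex-NBL10 carries the HA-tagged construct NBL10, which tags ribosomes, in a form that Cre switches on. The control animals thus had Cre and the tag as well, and differed by genotype at Ogt, which encodes O-GlcNAc transferase. The Y in both genotypes marks males, and age and strain are not given in the sources used here. There were 4 libraries of each genotype, with replicate numbers 2 to 5 for knockdown and 3 to 6 for control. No label ties a library to a separate animal, so the p-values measure the spread between these libraries, which may be technical.

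Glial cell line-derived neurotrophic factor (GDNF) binds the co-receptor GFRα1, and the complex activates RET, a receptor tyrosine kinase. Neurturin acts in the same way mainly through GFRα2. The neurotrophins BDNF and NT-3 (the product of Ntf3) activate the tyrosine kinases TrkB (Ntrk2) and TrkC (Ntrk3), while the receptor p75 (Ngfr) binds all neurotrophins. Midbrain dopamine neurons are a classic target of GDNF and BDNF, and RET is a surface receptor typical of them.

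Libraries held 49802305 to 147747191 counted reads, so that 3 reads, taken as the floor of detection for counting error only, were worth 0.0212 to 0.0626 CPM (counts scaled to the size of the library). The Ogt message was lower in each knockdown library (35.99 to 74.43 CPM) than in each control library (108.3 to 159.4 CPM). Across all genes tested, 28.5% passed the threshold of 0.05 for the adjusted p, 13.4% as higher and 15.1% as lower in knockdown. Markers of dopamine neurons were present in all 8 libraries (12 genes, summed 2109 to 3455 CPM in control and 1854 to 2438 CPM in knockdown), and of these 10 fell and 1, Aldh1a1, rose in knockdown. Aldh1a1 made up most of the sum in knockdown, and the other 11 markers summed to 1451 to 2957 CPM in control and 454.6 to 727.6 CPM in knockdown. Markers of other neurons fell too, with 5 of 6 for GABA neurons (median log2 fold change -0.99) and 3 of 4 on the glutamate neuron list (Slc17a6 2.03-fold lower). These 3 were Slc17a6, Slc17a8 and Rbfox3. Rbfox3 marks neurons in general, and its call ended in 6 of the fits that left out a library. The summed level of 10 astrocyte markers was 9934 to 13930 CPM in knockdown and 1510 to 5719 CPM in control, and most of it in knockdown was Gfap (5372 to 8401 CPM). Of 9 oligodendrocyte markers 6 rose (summed 1735 to 4282 CPM in knockdown and 1075 to 1661 CPM in control). Control replicate 3 stood apart, with 783.1 CPM of 8 endothelial markers against 9.438 to 16.31 CPM in the other controls and 23.58 to 37.6 CPM in knockdown. Fold changes and ratios that move by much without that library are given both ways.

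Of the 9 genes, Ret fell and Ngfr rose in knockdown (2 of 9, against 28.5% of all genes tested), and 7 did not pass. The groups did not overlap for Ret, Ntrk2, Ngfr and Ntf3 (4 of 9, against 35.1% of all genes tested). With 9 genes these shares are not far from the background, and nothing is read from the counts alone. The median log2 fold change was -0.13 over the 6 receptors and -0.27 over the 3 ligands, beside 0.00 over all genes tested.

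**Figure D1:**
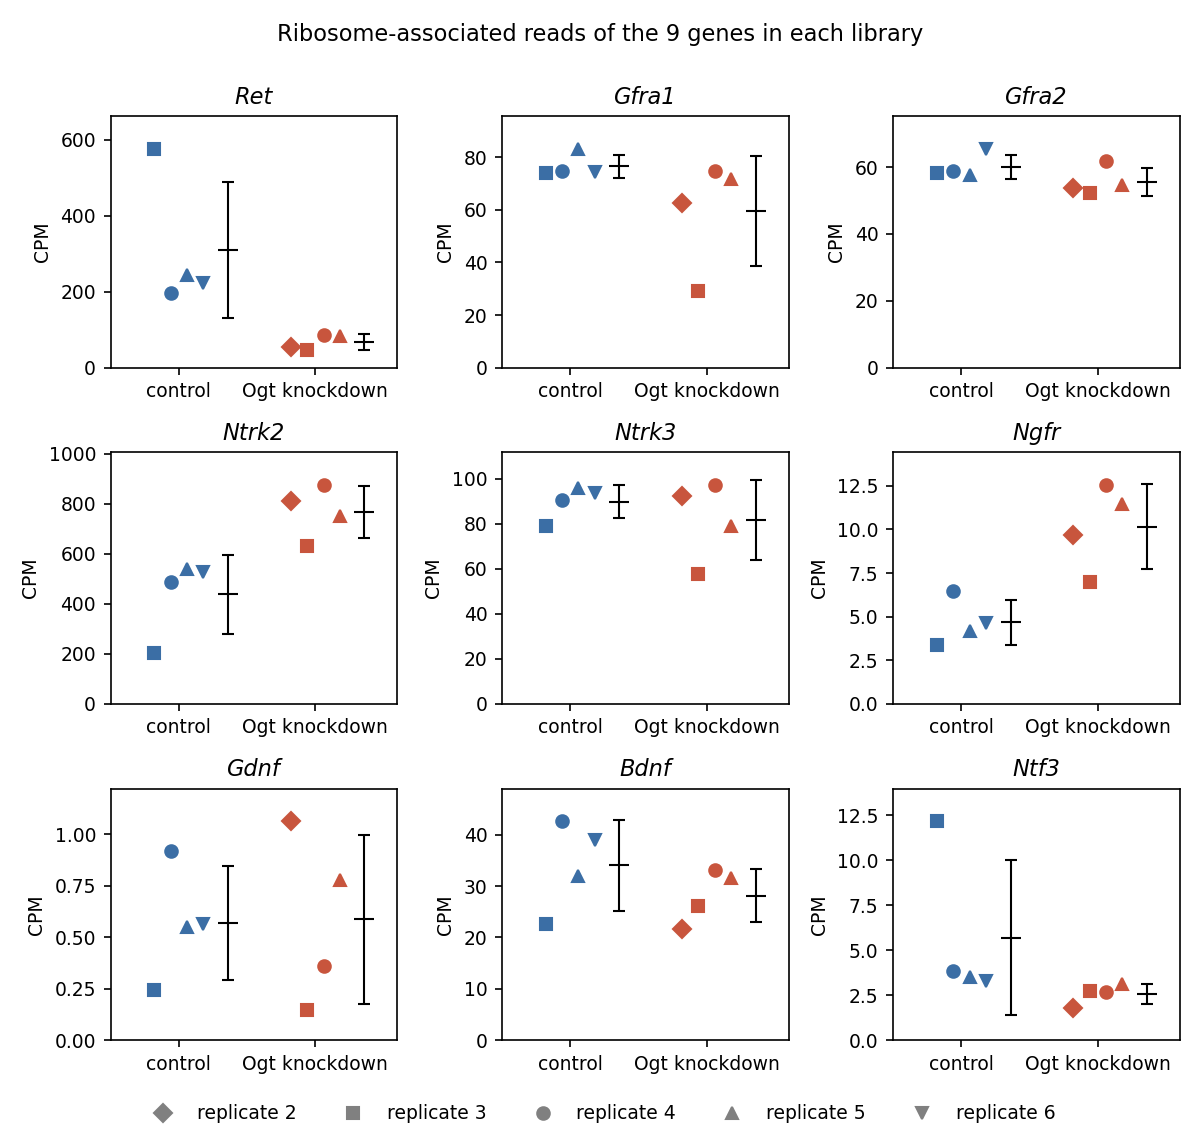
CPM (vertical axis, from 0, own scale per panel) of each of the 9 genes in the 4 control and 4 Ogt knockdown libraries. Each symbol is a library, its shape giving the replicate number, and the bars beside each group give the mean ± SD; the knockdown libraries lie below the controls for Ret and above them for Ngfr and Ntrk2, without overlap.

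The order of the levels differed between the groups. Per kilobase of exon, Ret led in control with 45.7 ± 26.4 CPM per kb (SD, n = 4), above Ntrk2 in 4 of 4 libraries. Ntrk2 (22.7 ± 8.18), Gfra2 (17.0 ± 1.02) and Gfra1 (13.98 ± 0.7991 CPM per kb) followed in control, and Ntrk2 was above Gfra2 in 3 of 4 libraries only. In knockdown Ntrk2 led with 39.7 ± 5.38 CPM per kb, Gfra2 (15.7 ± 1.18) and Gfra1 (10.9 ± 3.81) came next, and Ret followed these with 10.03 ± 3.015 CPM per kb. Gfra1 and Ret overlapped there. The lower part of the order in control was Bdnf (5.48 ± 1.42), Ntf3 (3.32 ± 2.51), Ntrk3 (2.97 ± 0.246), Ngfr (1.36 ± 0.377) and Gdnf (0.155 ± 0.0751 CPM per kb). Bdnf and Ntf3 overlapped, as did Ntf3 and Ntrk3, and Ntf3 was above Ntrk3 in 1 of 4 libraries. In knockdown the lower part was Bdnf (4.53 ± 0.845), Ngfr (2.95 ± 0.702), Ntrk3 (2.70 ± 0.589), Ntf3 (1.505 ± 0.3242) and Gdnf (0.159 ± 0.112 CPM per kb), where Bdnf overlapped Ngfr and Ngfr overlapped Ntrk3. Without control replicate 3, Ret was at 32.59 ± 3.44 and Ntrk2 at 26.8 ± 1.36 CPM per kb (SD, n = 3), and Ntf3, at 2.062 ± 0.156, came below Ntrk3, at 3.09 ± 0.0879 CPM per kb, in all 3 libraries. The length is that of all annotated exons, 30170 bases for Ntrk3 and 19292 for Ntrk2, so their levels per kb are low if the cells use only some of these exons.

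Ret (ENSMUSG00000030110.14, chr6:118128706-118174679, minus strand, GRCm39 as in the table) encodes the kinase through which all GDNF family ligands signal. Control replicates 3, 4, 5 and 6 had 575.8, 196.4, 242.8 and 222.0 CPM, and knockdown replicates 2, 3, 4 and 5 had 54.7, 46.21, 86.37 and 84.08 CPM. Every knockdown library lay below every control library, and control replicate 3 held more than any other. The log2 fold change was -2.19 (SE 0.37, 95% interval -3.02 to -1.35, edgeR quasi-likelihood adjusted p = 0.00282), a 4.56-fold fall. Without control replicate 3 it was -1.70 (adjusted p = 0.000408), and without both libraries numbered 3 it was -1.56 (adjusted p = 8.34e-05). In pooled ribosome-bound mRNA, a lower share of mRNA from dopamine neurons in the library and less Ret mRNA per neuron cannot be told apart.

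Ret fell by about as much as 4 dopamine messages of the same libraries. Its log2 level was set against the mean log2 CPM of Th, Slc6a3, Slc18a2 and Ddc, which encode the synthesis enzymes and transporters of dopamine, a reference chosen after the data were seen. On this scale Ret was at 0.25, -0.30, -0.28 and -0.23 in control replicates 3 to 6 and at -0.03, -0.53, -0.09 and -0.09 in knockdown replicates 2 to 5. The groups overlapped, with means of -0.14 ± 0.26 and -0.18 ± 0.23 (SD, n = 4 each), and the difference of -0.05 did not pass (exact two-sided permutation p = 0.771). It ranged from -0.10 to 0.08 when each library was left out in turn. Since these 4 messages fell themselves (log2 fold change -1.72 to -2.33), any gene that fell less is higher relative to them. The other 8 genes are therefore not compared on this scale. Among the other dopamine neuron markers, Pitx3, En1 and Foxa2 had log2 fold changes of -1.84, -1.76 and -1.62. Drd2, Nr4a2 and Calb1 fell less (-1.16, -0.99 and -0.62), Lmx1b did not pass and Aldh1a1 rose. The match of Ret thus holds for the 4 messages, and a reference with these other markers was not tested. Markers of GABA and glutamate neurons fell in the same libraries, and the part of a lower share of neurons as a whole in the Ret result was not tested. The nearest profile to Ret over the 8 libraries was that of Chrna6, a nicotinic receptor subunit of dopamine neurons, with a root mean square difference of 0.12 on the log2 scale after centring. Next came the neurotensin receptor Ntsr1 (0.20) and Snx32 (0.21). All 3 of these genes fell in knockdown, which the choice fixes, since the distance includes the difference between the groups.

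**Figure D2:**
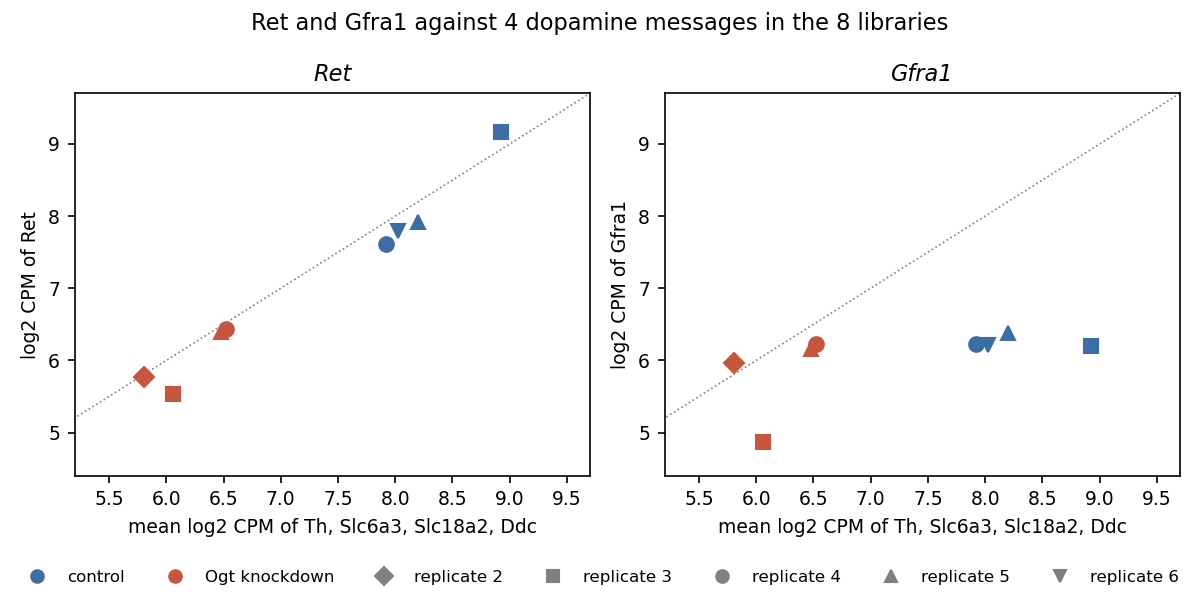
Log2 CPM of Ret (left) and Gfra1 (right) against the mean log2 CPM of 4 dopamine messages in the same library, with control in blue, Ogt knockdown in red and symbols for replicate numbers. The dotted line marks equal values, and Ret stays near it in both groups. Gfra1 is at 6.2 to 6.4 in control and 4.9 to 6.2 in knockdown, and nothing is read from its distance to the line.

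The GDNF co-receptor genes did not pass the test. Gfra1 (ENSMUSG00000025089.16, chr19:58224036-58444341, minus strand) had 73.83, 74.89, 83.08 and 74.39 CPM in control replicates 3 to 6 and 62.41, 29.29, 74.86 and 71.74 CPM in knockdown replicates 2 to 5. The groups overlapped and knockdown replicate 3 was far below the rest. Its log2 fold change was -0.36 (95% interval -0.91 to 0.19, edgeR adjusted p = 0.305), and -0.14 without knockdown replicate 3 (adjusted p = 0.349). Of its exon bases 7.6% are shared with Gm16277 on the other strand, and the counting did not use strand. Gfra2 (ENSMUSG00000022103.11, chr14:71127560-71217278, plus strand), the neurturin co-receptor, varied least: 57.73 to 65.37 CPM in control and 52.26 to 61.66 CPM in knockdown, with overlap. For Gfra2 the log2 fold change was -0.11 (95% interval -0.35 to 0.13, edgeR adjusted p = 0.487).

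The balance of co-receptors and Ret differed between the groups when it was taken within each library, where no scaling between libraries enters. Since Ret fell and neither co-receptor passed, these ratios mostly restate the fall of Ret and are not a separate result. Reads of Gfra1 per base were 0.158, 0.471, 0.423 and 0.414 of those of Ret in control replicates 3 to 6 and 1.41, 0.783, 1.07 and 1.05 of them in knockdown replicates 2 to 5. The groups did not overlap. The log2 ratio of Gfra1 to Ret was higher in knockdown by 1.64, and by 1.28 without control replicate 3. For Gfra2 to Ret the difference was 1.98, and 1.62 without that library. Both had an exact two-sided permutation p of 0.0286, and 0.0458 adjusted over the 8 gene pairs compared. With 4 libraries per group 0.0286 is the smallest p possible. The adjusted p is under 0.05 only because several pairs, which have genes in common, shared that value. Without control replicate 3 both had an exact permutation p of 0.0571, the smallest possible there, and did not pass. The ratio of Gfra2 to Gfra1 overlapped between the groups (difference 0.34, exact permutation p = 0.314, adjusted p = 0.359), and the difference was 0.06 without knockdown replicate 3.

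Among the neurotrophin kinases, Ntrk2 was higher in each knockdown library but missed the threshold. Ntrk2 (ENSMUSG00000055254.16, chr13:58954383-59281784, plus strand) encodes TrkB, made as a full-length kinase and as truncated forms without the kinase domain, which are abundant in astrocytes. The counts cover all exons of the gene and do not separate these forms. Control replicates 3 to 6 had 204.3, 487.7, 538.1 and 525.1 CPM and knockdown replicates 2 to 5 had 808.8, 629.0, 873.3 and 750.7 CPM. The groups did not overlap, and control replicate 3 was by far the lowest. The log2 fold change was 0.80 (SE 0.27, 95% interval 0.20 to 1.41, edgeR adjusted p = 0.0503). It passed in 7 of 16 other settings, among them those without control replicate 3 (0.56, adjusted p = 0.0123), with RLE scaling (adjusted p = 0.0496), with upper quartile scaling (0.0295) and in DESeq2 (0.0151). It did not pass when any other single library was left out (edgeR adjusted p = 0.0589 to 0.132). Nor did it when genes of low count were kept (0.0865) or with the replicate numbers as a block (0.0817). The summed level of the 10 astrocyte markers followed the same pattern, with 1510 CPM in control replicate 3, 3859 to 5719 CPM in the other controls and 9934 CPM or more in knockdown. Without Gfap, which made up most of the sum in knockdown, the other 9 markers summed to 1273 CPM in control replicate 3, 3100 to 3926 CPM in the other controls and 4562 to 5934 CPM in knockdown. Of the 10 markers 3 rose (Gfap, Sox9 and Slc1a2) and 0 fell, and their part in the Ntrk2 result was not tested. The profiles nearest to that of Ntrk2 were those of Peli2 (root mean square difference 0.07), Sash1 (0.07) and Glul (0.09), the last encoding glutamine synthetase, an enzyme typical of astrocytes.

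Ntrk3 (ENSMUSG00000059146.13, chr7:77825707-78387760, minus strand), the gene of the NT-3 receptor TrkC, had 79.05, 90.45, 95.74 and 93.52 CPM in control and 92.45, 57.43, 97.01 and 78.84 CPM in knockdown, in the order of the replicate numbers. The groups overlapped, with knockdown replicate 3 lowest. Ntrk3 had a log2 fold change of -0.14 (95% interval -0.51 to 0.23, edgeR adjusted p = 0.568). The log2 ratio of Ntrk2 to Ntrk3 was higher in knockdown by 1.06, with 1.37, 2.43, 2.49 and 2.49 in control and 3.13, 3.45, 3.17 and 3.25 in knockdown (exact permutation p = 0.0286, adjusted p = 0.0458). Without control replicate 3 the difference was 0.78 (exact permutation p = 0.0571). Ntrk3 changed little, so this ratio mostly restates the higher level of Ntrk2, which missed the threshold, and is not a separate result.

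Ngfr (ENSMUSG00000000120.7, chr11:95459644-95478561, minus strand), the gene of p75, rose from a low level. Control replicates 3, 4, 5 and 6 had 3.384, 6.451, 4.187 and 4.661 CPM, and knockdown replicates 2, 3, 4 and 5 had 9.68, 6.987, 12.53 and 11.44 CPM. All knockdown libraries were above all controls, though knockdown replicate 3 was close to control replicate 4. Its log2 fold change was 1.12 (SE 0.26, 95% interval 0.56 to 1.69, edgeR adjusted p = 0.00971), a 2.18-fold rise. It kept its side of the threshold without any single library (adjusted p = 0.00516 to 0.0368). In log2 terms Ngfr rose against Ntrk3 within libraries by 1.29 (exact permutation p = 0.0286, adjusted p = 0.0458). Without control replicate 3 that rise was 1.21 (exact permutation p = 0.0571). Ntrk3 did not pass, so this ratio mostly restates the rise of Ngfr and is not a separate result. The difference of the log2 ratio of Ngfr to Ntrk2 was 0.24 with overlap (exact permutation p = 0.429). That difference ranged from 0.07 without control replicate 5 to 0.43 without control replicate 3.

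Outside neurons, p75 is known from Schwann cells and from cells of the vessel wall. Of 4 other Schwann cell markers, Pmp22 rose 2.96-fold from 14.11 ± 3.758 to 41.75 ± 5.79 CPM (SD, n = 4) and Gap43, which neurons also express, fell 1.64-fold, while Sox10 and Prx did not pass. The summed level of the 4 markers, most of it Gap43, was 669.5 to 884.1 CPM in control and 431.7 to 594.7 CPM in knockdown. Of 8 pericyte and smooth muscle markers 0 passed in edgeR, and their sum was 608.5 CPM in control replicate 3, 10.49 to 16.59 CPM in the other controls and 26.42 to 40.13 CPM in knockdown. Control replicate 3, the library richest in these markers, had the lowest level of Ngfr. Among the other libraries, both this sum and Ngfr were higher in knockdown than in control. The part of these cells in the Ngfr result was not tested. The nearest profiles were those of Rd3l (root mean square difference 0.12), St8sia2 (0.14) and Itga8 (0.20).

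The title of the study names STAT3, a factor that binds STAT motifs. The RefSeq promoter windows of the 9 genes (GRCm38.p6, 250 bases before to 50 bases after the start) were searched on both strands for the STAT motif TTCNNNGAA, which is its own reverse complement, and for the cAMP response element TGACGTCA, likewise palindromic. Of the 9 genes 6 had windows, 14 in all, of which 7 were of Bdnf. Ret, Gfra2 and Ntrk3 had no window and were not searched. The STAT motif was found in 1 of the 14 windows, against 8.3% of 32851 windows of all genes, and the cAMP response element in 0 of 14, against 1.79%. The stretches from base 250 to base 51 before the start are shown for Ngfr, the gene that rose, and for the first Bdnf window, which holds the match, in capitals. The Ngfr stretch is chr11:95587749-95587948 on the minus strand and the Bdnf stretch is chr2:109674450-109674649 on the plus strand, both written 5′ to 3′.
Ngfr: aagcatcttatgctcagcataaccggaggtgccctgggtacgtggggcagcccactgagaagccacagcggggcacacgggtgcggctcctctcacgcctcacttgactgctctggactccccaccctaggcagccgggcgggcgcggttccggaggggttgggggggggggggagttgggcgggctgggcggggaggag
Bdnf: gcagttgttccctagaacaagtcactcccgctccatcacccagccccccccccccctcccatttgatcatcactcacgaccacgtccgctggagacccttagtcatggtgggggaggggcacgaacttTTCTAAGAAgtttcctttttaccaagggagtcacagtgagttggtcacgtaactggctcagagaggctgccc
The match TTCTAAGAA begins 122 bases before the annotated start, and a match of letters is not evidence of binding.

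None of the 3 ligand genes passed the test in edgeR with all libraries, and 1 of them, Ntf3, had an unadjusted p under 0.05 and passed in DESeq2. Gdnf (ENSMUSG00000022144.5, chr15:7840327-7867056, plus strand) was barely present, with 18, 44, 68 and 80 reads in control replicates 3 to 6 and 108, 8, 27 and 66 reads in knockdown replicates 2 to 5. The levels of 0.2436 to 0.9187 CPM in control and 0.1448 to 1.061 CPM in knockdown overlapped fully. The log2 fold change of 0.06 had a 95% interval of -1.36 to 1.48 (edgeR adjusted p = 0.957), so a change of 2-fold in either direction lay within the interval. Its sign turned with some settings, for example to -0.41 without knockdown replicate 2.

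Bdnf (ENSMUSG00000048482.15, chr2:109505045-109557352, plus strand) was the most abundant of the ligand messages. Control replicates 3 to 6 had 22.59, 42.61, 31.93 and 39.05 CPM and knockdown replicates 2 to 5 had 21.72, 26.17, 33.22 and 31.58 CPM. The groups overlapped, with the lowest control again being replicate 3. Bdnf had a log2 fold change of -0.27 (95% interval -0.75 to 0.20, edgeR adjusted p = 0.374). Without control replicate 3 it was -0.43 (adjusted p = 0.0737). Of the exon bases of Bdnf, 14.41% lie in Gm45346 on the other strand, and reads there cannot be assigned without strand. The log2 ratio of Ntrk2 to Bdnf was higher in knockdown by 1.14 (exact permutation p = 0.0286, adjusted p = 0.0458). Without control replicate 3 it was higher by 0.99 (exact permutation p = 0.0571). This ratio mostly restates the higher level of Ntrk2, which missed the threshold, and is not a separate result. The nearest profile to that of Bdnf was that of Rgs4 (root mean square difference 0.08).

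Ntf3 (ENSMUSG00000049107.14, chr6:126078375-126143873, minus strand) had 12.14, 3.821, 3.495 and 3.289 CPM in control replicates 3 to 6 and 1.789, 2.751, 2.692 and 3.088 CPM in knockdown replicates 2 to 5. Every knockdown library was below every control, but the size of the difference rested on control replicate 3. Its log2 fold change was -1.14 (95% interval -2.11 to -0.17, edgeR adjusted p = 0.0776) with that library and -0.46 (edgeR adjusted p = 0.158) without it. DESeq2 gave an adjusted p of 0.0338. Control replicate 3 was also the library rich in endothelial and mural markers, and their part in its Ntf3 level was not tested. The ratio of Ntrk3 to Ntf3 overlapped between the groups (log2 difference 0.76, exact permutation p = 0.286), and the difference was 0.26 without control replicate 3.

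**Figure D3:**
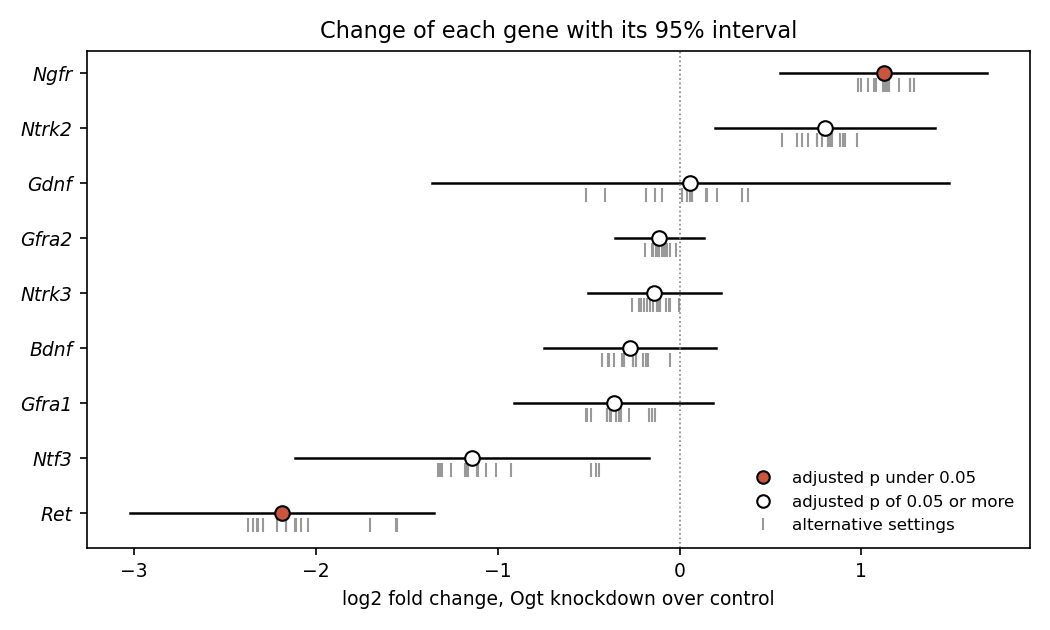
Log2 fold change of each gene in Ogt knockdown over control (points) with its 95% interval (lines), filled where the edgeR adjusted p was under 0.05. Grey ticks give the values under the alternative settings, which stay below 0 for Ret (-2.38 to -1.56) and above 0 for Ngfr (0.98 to 1.29) and cross 0 for Gdnf (-0.52 to 0.38).

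Other genes of these pathways were followed in 7 lists that hold 115 genes in all. Of 106 tested, 19 rose and 18 fell (34.9%, against 28.5% of all genes tested), and the median log2 fold change was -0.08. A gene in more than 1 list is counted once. When the replicate numbers were added to the fit as a block, only Gfra4, Tnfrsf19, Plat, Pcsk6, Shc2, Akt2, Rps6ka2, Spred3, Maged1 and Ndn passed. The other calls in these lists rest on the main fit, which has no block.

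In the rest of the GDNF family, 2 of 7 genes tested fell and 1 rose (median log2 fold change 0.10). Gfra4, the gene of the persephin co-receptor, fell from 85.17 ± 4.758 to 46.78 ± 6.908 CPM (SD, n = 4, 1.82-fold, edgeR adjusted p = 0.00137), and the call held without any single library. Nrtn, the gene of neurturin, fell from 17.0 ± 3.191 to 9.39 ± 3.295 CPM (1.81-fold, edgeR adjusted p = 0.03), a call that ended when controls 4 and 5 or knockdowns 2, 4 and 5 were left out singly (0.0785 at most). Gdf15, the gene of a distant relative that signals through GFRAL and RET, rose from 0.458 ± 0.3455 to 3.584 ± 1.263 CPM (7.68-fold, edgeR adjusted p = 0.0284). Its call ended when controls 4 and 6 or knockdowns 2, 3 and 5 were left out singly (0.079 at most), and also when genes of low count were kept (0.0999). Artn, the gene of artemin, had a log2 fold change of 0.69 (edgeR adjusted p = 0.0821). Gfra3 and Gfral were not tested, with at most 22 and 6 reads in a library.

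Among other neurotrophin family genes, 2 of 10 tested rose and 2 fell (median -0.11). Tnfrsf19, a receptor of the same superfamily as p75, rose from 33.68 ± 4.493 to 71.74 ± 4.253 CPM (SD, n = 4, edgeR adjusted p = 0.000487). Sorcs2, whose product pairs with p75 in binding proneurotrophins, rose from 34.57 ± 8.64 to 101.5 ± 57.09 CPM (edgeR adjusted p = 0.019), with overlap between the groups, and missed the threshold when either library numbered 4 was left out or genes of low count were kept (0.0913). The genes of the Nogo receptor Rtn4r and its partner Lingo1, both of which can form a complex with p75, fell 2.14-fold and 1.65-fold (edgeR adjusted p = 0.00354 and 0.0434). Lingo1 missed the threshold when controls 4, 5 and 6 or knockdowns 2 and 5 were left out singly. With upper quartile scaling Nrtn and Lingo1 also missed it (edgeR adjusted p = 0.0574 and 0.0555). Ntf5 was not tested, with 0 to 69 reads in a library.

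Genes that process proneurotrophins moved in both directions. Of 11 tested, 4 rose and 3 fell (median 0.28). Plat, the gene of tissue plasminogen activator, rose from 23.02 ± 8.722 to 71.88 ± 5.159 CPM (SD, n = 4, 3.12-fold, edgeR adjusted p = 0.00101). Cpe, a carboxypeptidase of the secretory pathway, rose 3.02-fold and the proprotein convertase Pcsk6 rose 3.28-fold. Pcsk7 rose 1.52-fold, a call that held without control replicate 3 or knockdown replicate 3 and was lost without any other single library. The neuroendocrine convertases Pcsk2 and Pcsk1 fell 1.73-fold and 1.61-fold, and Serpini1, the gene of neuroserpin, an inhibitor of tissue plasminogen activator, fell 1.67-fold. Pcsk1 missed the threshold when control 6 or knockdown 2 was left out. Plg, Mmp3 and Mmp7 were not tested.

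**Figure D4:**
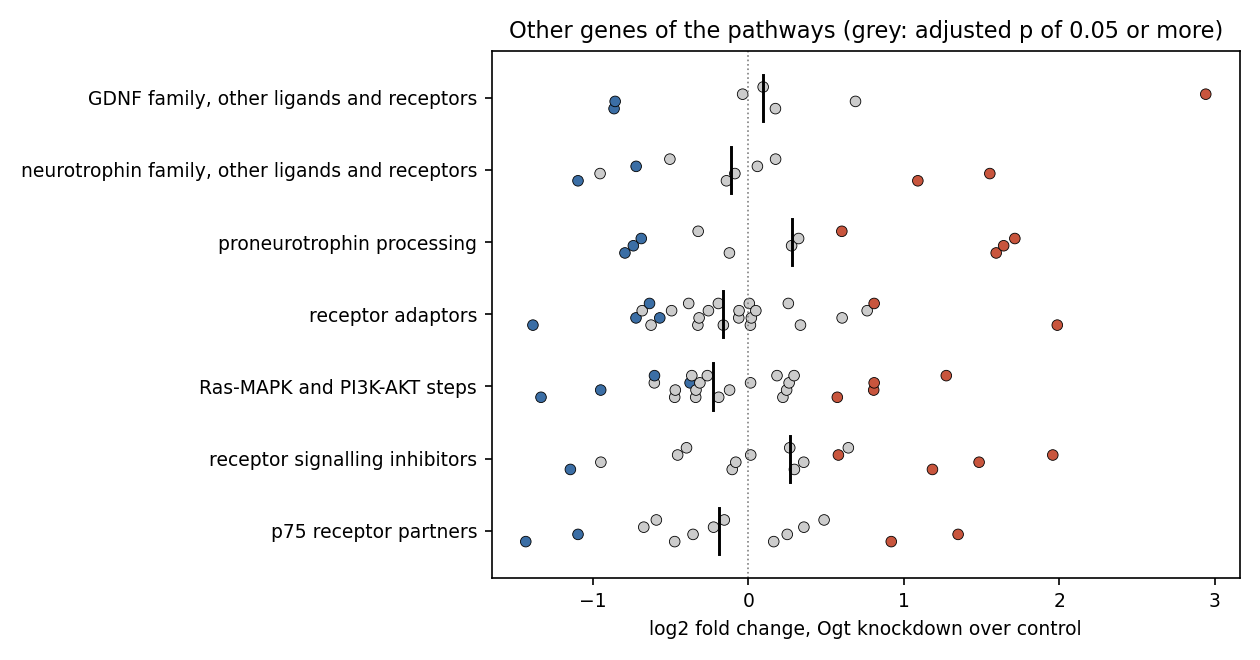
Log2 fold change (Ogt knockdown over control, horizontal axis) of the tested genes of 7 pathway lists. Each point is a gene, red where it rose and blue where it fell at an edgeR adjusted p under 0.05 and grey otherwise, and black bars mark medians, which lie between -0.23 and 0.28.

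Downstream of the receptors, genes moved in both directions. The counts are near the share called over all genes tested (28.5%), and nothing is read from them alone. Of 25 receptor adaptors, 4 fell and 2 rose (median -0.16). Shc2, an adaptor of Trk receptors in neurons, fell from 55.7 ± 2.381 to 21.31 ± 5.555 CPM (SD, n = 4, 2.61-fold, edgeR adjusted p = 0.001), and Frs3 fell 1.55-fold. Dok1 rose from 1.016 ± 0.6174 to 4.057 ± 0.7705 CPM (3.96-fold, edgeR adjusted p = 0.0117), and Gab1 rose 1.75-fold, a call lost without control replicate 4. Dok5 and Dok4, substrates of RET, fell 1.48-fold and 1.65-fold, and both calls ended when control 6 or knockdowns 2 and 4 were left out singly, that of Dok4 also for control 4. Both also missed the threshold with upper quartile scaling (edgeR adjusted p = 0.0589 and 0.0595). Of 24 genes of the Ras-MAPK and PI3K-AKT steps, 4 rose and 4 fell (median -0.23). Nras rose 2.42-fold and Akt2 1.75-fold, while Araf fell 1.93-fold and the ribosomal S6 kinase gene Rps6ka2 fell 2.52-fold.

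Of 15 inhibitors of receptor signalling, 4 rose and 1 fell (median 0.27). Lrig1, whose product restrains RET and Trk receptors, rose from 142.2 ± 62.97 to 552.6 ± 203.5 CPM (SD, n = 4, 3.88-fold, edgeR adjusted p = 0.00636). Lrig3 rose 2.80-fold and Spry2, a Sprouty inhibitor of the Ras pathway, rose 2.27-fold. Spred3 fell 2.21-fold (edgeR adjusted p = 0.00073). Spry2 missed the threshold when control 4 or any single knockdown library was left out. It also did so when genes of low count were kept (edgeR adjusted p = 0.0932). Spred1 rose 1.49-fold, a call that held only when the library left out was control 3. Of 14 partners of p75, 2 rose and 2 fell (median -0.19). Maged1, which encodes a MAGE protein that binds p75, fell from 914.7 ± 205.8 to 339.1 ± 56.61 CPM (SD, n = 4, 2.70-fold, edgeR adjusted p = 0.000783), and its relative Ndn fell 2.14-fold. Adam17, the gene of a protease that sheds p75, rose 2.55-fold, and Ripk2 rose 1.89-fold with a call lost without knockdown replicate 5. In the same knockdown libraries, astrocyte, oligodendrocyte and microglia markers were higher and neuron markers lower (8 of 10 microglia and macrophage markers rose, summed 54.33 to 151.4 CPM in knockdown and 28.62 to 48.49 CPM in control), and their part in these counts was not tested.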

How the data were processed

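The authors deposited whole-number read counts per gene for 8 libraries, made with featureCounts 2.0.3 over exons of GENCODE vM30, per the file headers. The command in the header sets no strand and does not count pairs as units or reads with several alignments. The submitters' processing notes list FastQC, Trimmomatic, STAR and the build mm10. That build does not match GENCODE vM30, which is on GRCm39, and the difference could not be settled. The deposited exon length per gene was used for levels per kilobase. Symbols were matched by gene ID to a table of gene names (52073 of 56691 matched), and promoter windows came from RefSeq.

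From the counts, genes were filtered with filterByExpr, scaled by TMM and tested with edgeR 4.0.16 (glmQLFit, robust, and glmQLFTest, two-sided) in R 4.3.3, with Benjamini-Hochberg adjustment over 19912 genes. The SE is the fold change divided by the square root of F. CPM are TMM-scaled. Alternatives used limma 3.58.1, DESeq2 1.42.0, other scalings and filters, a replicate block, and leaving out libraries. Ratios within libraries were compared by exact two-sided permutation over 70 assignments. These ratios, the levels per kilobase without control replicate 3 and the marker sums without their leading gene were added after the data were seen. The fit was tested on simulated data. The genes and lists were chosen with earlier results of these data known. The text names the 9 genes, Ogt, the 4 genes of each pathway list with the smallest p, exceptions to a count, and up to 3 nearest profiles (log2 CPM, prior count 2). Pcsk7, Pcsk2, Pcsk1, Dok5, Dok4, Spred1 and the single marker genes were chosen after their values were seen. Beside the marker genes named, 1 further gene of the marker lists is not reported here.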

Additional observations from a re-analysis of the deposited data

Results flagged for a closer look

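In 5 of the 18 sets of 4 values (9 genes in 2 groups), 1 library lay far from the other 3, where chance gives about 1 in 20. Control replicate 3 was high for Ret (575.8 CPM) and Ntf3 (12.14 CPM) and low for Ntrk2 (204.3 CPM). Control replicate 5 was high for Gfra1 (83.08 CPM), and control replicate 6 for Gfra2 (65.37 CPM), both within narrow groups.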

How the results depend on the processing

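Among the 9 genes, 1 rose and 1 fell. The higher genes numbered 2 with RLE scaling, upper quartile scaling, a filter of 1 CPM in at least 4 libraries, DESeq2, limma-voom with sample quality weights and without both libraries numbered 3, and 1 to 2 when each library was left out; the second gene was Ntrk2 throughout. The lower genes numbered 2 in DESeq2 (Ntf3 added) and 1 in each run that left out a library. Over all genes, 2659 rose and 3009 fell. Limma-voom called 5229 and 4979, the fit without both libraries numbered 3 called 4805 and 4760, and the fits without 1 library called 1684 to 3723 and 2140 to 3475 (1684 higher without control replicate 4 and 1736 without control replicate 6). With the replicate block, 480 rose and 778 fell, and 0 of the 9 genes rose or fell (Ret -2.08, edgeR adjusted p = 0.076; Ngfr, 0.0527). Same-numbered libraries deviated together with correlations across genes of 0.104, 0.099 and 0.042, and libraries of unlike number with -0.103 to 0.081. The first 2 values were the highest of all, while control replicate 5 correlated about as well with knockdown replicate 4 (0.044). No label states a pairing, and these low correlations do not settle it. The main fit does not use the numbers, and its calls of Ret and Ngfr depend on that choice. The fold change of Gdnf reversed to -0.10 in limma-voom, -0.52 with the block, -0.18 without control replicate 3, and to -0.41 and -0.13 without knockdown replicates 2 and 5, and the fits without 1 library ranged from -0.41 to 0.38. The cause was not tested. Gdnf had 8 to 108 reads in a library, and its levels within knockdown spread from 0.1448 to 1.061 CPM.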
